A study of Mus musculus with 2 samples.

Results

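The VEGF and angiopoietin ligands and receptors were followed in nuclei of mouse sarcomas, as the 10 features whose symbols are Vegfa, Vegfb, Vegfc, Pgf, Angpt1, Angpt2, Kdr, Flt1, Flt4 and Tek, out of 19059 features counted. Of these, 6 encode ligands and 4 encode receptors. All 10 were present in every matrix, and all 10 gene identifiers matched a protein-coding gene of GENCODE release M39. The question asked of them was which class of cells in the tumor held each ligand and each receptor, and whether that differed between untreated tumors and tumors of mice given Minnelide.

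The tumors came from dFLEx CDS mice, in which the human fusion gene CIC::DUX4, under the ubiquitous CAG promoter at the Rosa26 locus, needs both Cre and FLP recombinase to be switched on. Plasmids for both enzymes were electroporated into hind limb muscle of young adult mice of either sex, so every tumor of both groups was started by the fusion and arose in muscle. One group held 4 untreated tumors, labelled dFLEx CDS +/-, and the other held 4 tumors of dFLEx CDS mice treated daily for 21 days with Minnelide, 0.42 mg/kg by intraperitoneal injection (its label gives no zygosity). Per the study, the treated tumors sequenced were ones that had responded well or badly, so the Minnelide group mixes both, and the labels do not say which tumor is which. Minnelide is converted in the body to triptolide, a compound that blocks the XPB helicase of the general transcription factor TFIIH and so transcription by RNA polymerase II.

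Vascular endothelial growth factors bind receptor tyrosine kinases on endothelial cells. Vegfa binds KDR (VEGFR2), the main signaling receptor for vessel growth, and FLT1 (VEGFR1), which binds tightly and signals weakly and therefore also acts as a decoy. Vegfb and placental growth factor (Pgf) bind FLT1 but not KDR, and Vegfc binds FLT4 (VEGFR3), the receptor of lymphatic vessels, as well as KDR. The angiopoietins bind TEK (TIE2). Angpt1, released by cells around vessels, activates it and quiets the endothelium, and Angpt2, released by activated endothelial cells, mostly opposes Angpt1. In tumors these genes are known for the sprouting and the stability of tumor vessels.

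The 8 tumors held 72338 deposited nuclei with 18487409 to 73211599 unique molecular identifiers (UMIs) per tumor, and 59920 nuclei were retained after filtering. Retained nuclei of untreated tumor 4 had a median of 880 UMIs, and the other tumors had medians of 2422 to 4057. Nuclei fell into 33 clusters, which were named from marker genes that leave out the 10 genes studied. The 7 named classes were tumor-like, endothelial-like, fibroblast-like, mural-like (pericyte and smooth muscle genes together), macrophage-like, osteoclast-like and myocyte-like. A level is the UMIs of a gene per 1000000 UMIs (CPM) of the summed nuclei of a class in a tumor, and the tumor is the unit of replication (n = 4 per group). Levels of a gene were compared between classes and tumors, never between genes, since no length scale applies. Tumors with under 20 nuclei of a class were left out of that class, which removed Minnelide tumor 4 from the mural-like nuclei. Of the 13 tumor-like clusters, 11 had at least 90% of their nuclei from 1 tumor, so the tumor-like nuclei of the groups lie mostly in different clusters. Cell barcodes were shared in 4 pairs of tumors, each of 1 untreated and 1 Minnelide tumor, at 49 to 132 barcodes a pair. Tumors of the same group shared 0. The labels name no batch of capture or sequencing, so none could be set apart from the treatment. A difference in capture between the groups, if there was one, cannot be told apart from Minnelide.

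A pair of tumors stood apart. In untreated tumor 1, the 12 endothelial markers measured summed to 4368 CPM in tumor-like nuclei and to 1367 to 2377 CPM in its fibroblast-like, mural-like, macrophage-like, osteoclast-like and myocyte-like nuclei. The other 7 tumors held 452 to 548 CPM in tumor-like nuclei and 246 to 1063 CPM over all classes but the endothelial-like one. The tumor-like nuclei of untreated tumor 1 lay mostly in 2 clusters of 3294 nuclei in all, in which tumor markers were raised together with 10 and 12 of the 12 endothelial markers. Other lists were raised there too, among them 5 of 10 macrophage and 5 of 11 T and NK cell markers in the first. In the second they included 11 of 12 myocyte and 7 of 10 fibroblast markers. Elsewhere, some tumor-like clusters had fewer than 3 endothelial markers raised, and one from Minnelide tumor 2 had 9 of 12. The 12 markers summed to 452 CPM in that one, against 4246 and 5499 CPM in the 2 clusters of untreated tumor 1. In untreated tumor 4, a cluster of 6501 nuclei of low depth, 96.2% of it from that tumor, stayed unnamed, since its leading genes (Cct2, Postn, Muc5ac, Col3a1, Zan, Col1a1, Slc26a7, Dlk1, Sparc and Nrk) included fibroblast genes, although 11 of 11 tumor markers were raised in it. That name depended on the settings: tumor-like nuclei were 20.2% of the retained nuclei of untreated tumor 4, and 80.1% to 81.7% at either other clustering resolution, without doublet removal, with the filter on genes only or without the check of leading genes. Values that rest on untreated tumor 1 are therefore given with and without it. The endothelial-like nuclei themselves carried their markers: the 12 markers summed to 3484 to 9809 CPM there, and none of the 12 was at 0 in the tumor-like nuclei of any tumor.

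The members sorted into 3 patterns across classes. The receptors Kdr, Flt1, Flt4 and Tek were highest in endothelial-like nuclei in 8 of 8 tumors, and Angpt1 was highest in fibroblast-like nuclei in 7 of 8. Angpt2 and Vegfc each had a pair of classes at a like level, endothelial-like with mural-like for Angpt2 and endothelial-like with osteoclast-like for Vegfc. Vegfa, Vegfb and Pgf led in no class in more than 4 tumors. In an exact sign-flip permutation test over tumors of each class against the next lower one, two-sided and adjusted by Benjamini-Hochberg over all 60 neighbour pairs, 0 of the 10 leading classes exceeded the next at an adjusted p under 0.05, and 5 did so unadjusted. The smallest p that 8 tumors allow is 0.00781, which Kdr, Flt4 and Tek reached, and Flt1 reached 0.0156, the smallest for 7 tumors. Adjusted over 60 pairs, 0.00781 became 0.117, so even a leading class higher in 8 of 8 tumors did not pass. The adjusted count of 0 therefore does not speak against a separation. The order and the test used the same tumors, so these p-values describe the separation and are not an independent test of it.

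**Figure D1:**
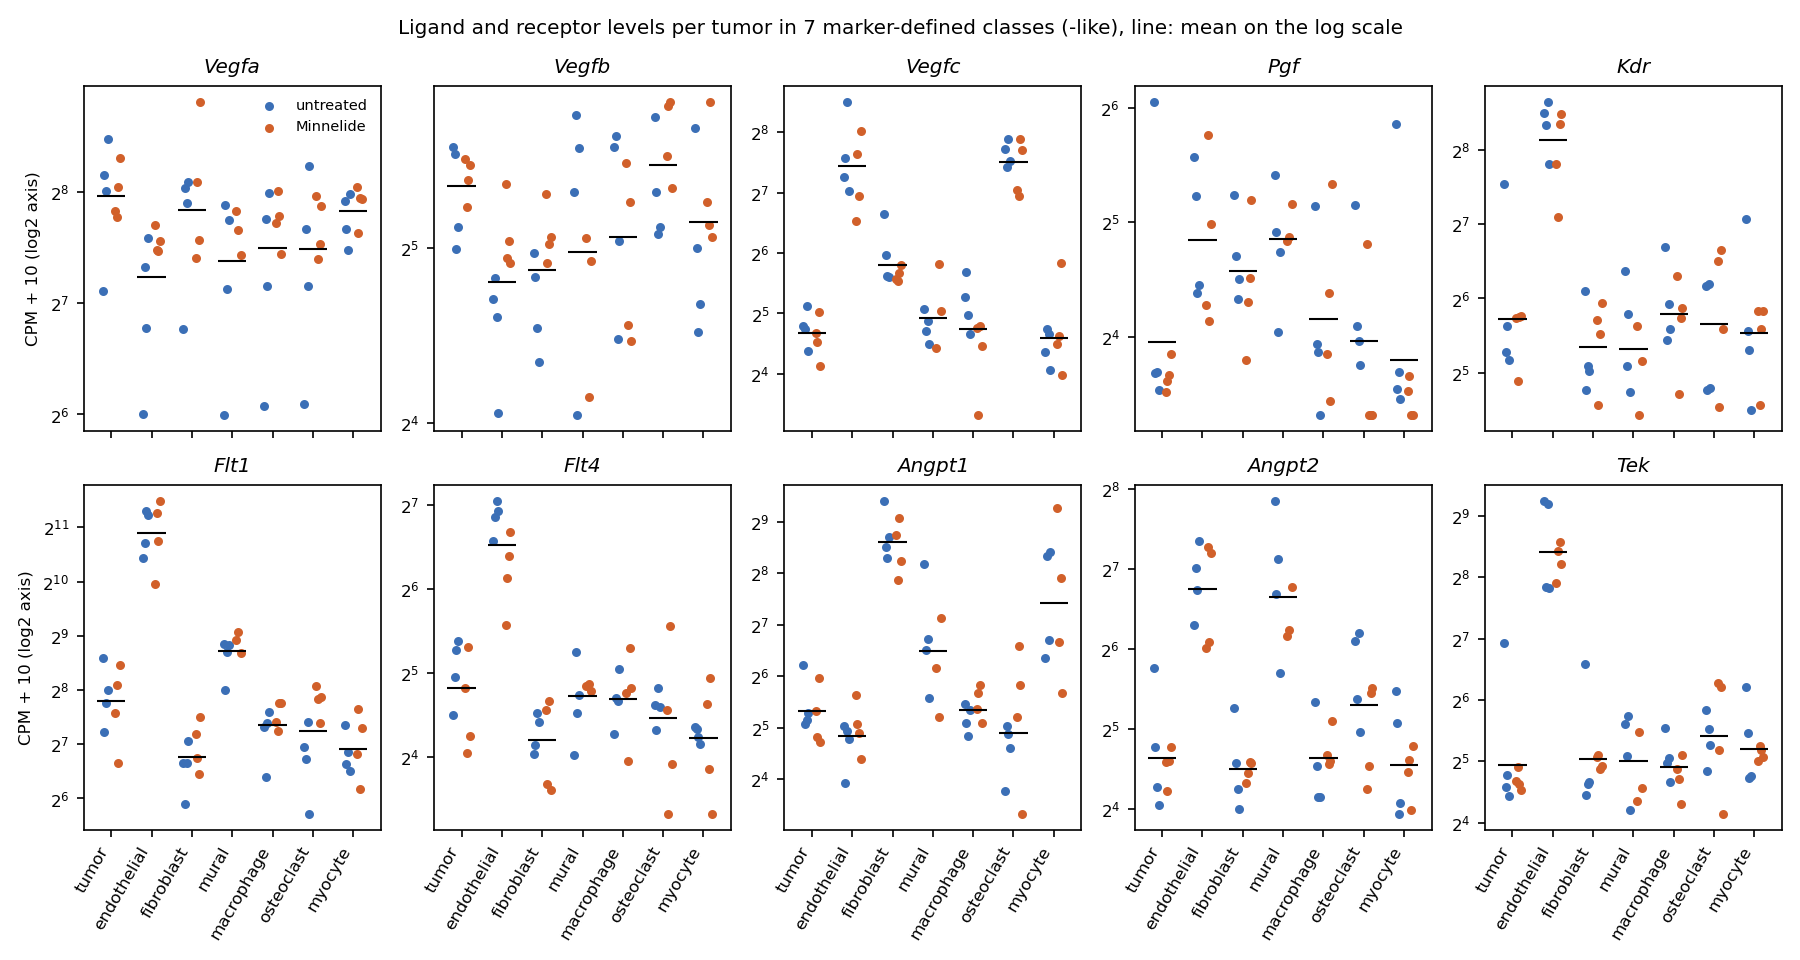
Level of each of the 10 genes (CPM + 10, log2 axis) in 7 marker-defined classes, 1 point per tumor, with untreated tumors in blue and Minnelide tumors in orange and the mean on the log scale as a line. The 4 receptors stand highest in endothelial-like nuclei in every tumor, Angpt1 in fibroblast-like nuclei, and Vegfa and Vegfb overlap across all classes.

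Vegfa (ENSMUSG00000023951, chr17:46327919-46343309 in GRCm39) is the main growth factor of blood vessels and is switched on by low oxygen. Its level in the tumor-like nuclei was 128, 274, 247 and 347 CPM in untreated tumors 1 to 4 and 217, 209, 254 and 305 CPM in Minnelide tumors 1 to 4. In myocyte-like nuclei it was 231, 193, 169 and 243 CPM untreated and 254, 189, 236 and 235 CPM with Minnelide. Fibroblast-like nuclei held 99.3, 252, 228 and 263 CPM untreated and 159.7, 262, 179.6 and 439 CPM with Minnelide. The lowest class was the endothelial-like one, at 54.3, 149.98, 99.5 and 182 CPM untreated and 198, 168, 167 and 178 CPM with Minnelide. Classes and groups thus overlapped widely, and untreated tumor 1 was the lowest tumor in 6 of the 7 classes, all but the myocyte-like one. Tumor-like nuclei led in 4 tumors, fibroblast-like and myocyte-like nuclei in 2 each, and no step between neighbouring classes passed the test (adjusted p from 0.288 to 0.992 over 6 exact tests). Tumor-like nuclei held 63.7% of all Vegfa UMIs with 50.4% of the nuclei, and 63.5% without untreated tumor 1. Such a share depends on the number and the depth of the nuclei as well as on the level. The mean level was 248 CPM ± 66.2 in tumor-like and 237 CPM ± 65.9 in all retained nuclei (SD, n = 8).

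Vegfb (ENSMUSG00000024962, chr19:6958447-6965127), a ligand of FLT1 abundant in muscle, was also spread over the classes. In tumor-like nuclei it was 37.8, 36.4, 21.8 and 24.7 CPM in the untreated and 35.5, 27.6, 31.9 and 34.5 CPM in the Minnelide tumors. In osteoclast-like nuclei it was 43.8, 30.02, 23.8 and 24.8 CPM untreated and 36.04, 46.3, 47.05 and 30.5 CPM with Minnelide, so the ranges of both classes and groups overlapped. Its mean over tumors was lowest in endothelial-like nuclei, at 18.8 CPM ± 7.09 (SD, n = 8), and highest in osteoclast-like nuclei, at 35.3 CPM ± 9.43 (SD, n = 8), followed by the tumor-like nuclei at 31.3 CPM ± 5.89 (SD, n = 8). The osteoclast-like level rested on 7 to 21 UMIs per tumor, and osteoclast-like nuclei led in 4 tumors. Tumor-like nuclei held 69.3% of the Vegfb UMIs.

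Vegfc (ENSMUSG00000031520, chr8:54530257-54640131), the growth factor of lymphatic vessels, was concentrated in a pair of classes. In endothelial-like nuclei it stood at 144, 181, 352 and 121 CPM in the untreated tumors and at 82.1, 189, 113 and 249 CPM in the Minnelide tumors. In osteoclast-like nuclei, the large bone-resorbing cells of the macrophage lineage, it stood at 201, 162, 226 and 174 CPM untreated and 122, 112, 225 and 198 CPM with Minnelide. The ranges of the pair overlapped, each class led in 4 tumors, and the difference averaged 0.08 on the log2 scale (SD 0.60, n = 8, exact sign-flip p = 0.727). Both stood above the fibroblast-like nuclei, whose 90.3 CPM in untreated tumor 1 was the highest value and which otherwise held 36.5 to 52.5 CPM. The endothelial-like nuclei exceeded them in 8 of 8 tumors, by 1.63 on the log2 scale (SD 0.73, n = 8, exact sign-flip adjusted p = 0.117). The tumor-like nuclei held only 7.49 to 25.0 CPM, yet 35.2% of the Vegfc UMIs, against 25.3% in endothelial-like and 7.67% in osteoclast-like nuclei. Endothelial markers in the osteoclast-like nuclei were at 5.67% to 30.5% of their endothelial-like level, whereas Vegfc was at 59.6% to 199%, so Vegfc per endothelial-marker UMI was higher in osteoclast-like nuclei in 8 of 8 tumors.

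Pgf (ENSMUSG00000004791, chr12:85213409-85224564), a FLT1 ligand of placenta, injury and tumors, was sparse. In the tumor-like nuclei it was 56.4 CPM in untreated tumor 1 and 2.85, 2.97 and 1.63 CPM in untreated tumors 2 to 4, with 1.47, 2.27, 2.70 and 4.48 CPM in the Minnelide tumors. A single tumor thus stood well above the other 7, which lay together. The myocyte-like nuclei showed the same, with 47.97 CPM in untreated tumor 1 and at most 2.95 CPM in the others. A myocyte-like cluster of 2058 nuclei, 99.6% from untreated tumor 1, had a median of 968.5 UMIs and held 96.8 CPM of Pgf. In it 11 of 11 tumor and 12 of 12 endothelial markers were raised beside the 12 muscle markers. Raised too were 9 of 10 fibroblast, 7 of 10 macrophage, 5 of 7 smooth muscle, 4 of 8 pericyte and 3 of 7 osteoclast markers. Another, of 1201 nuclei and 99.8% from that tumor, had no other class raised and held 23.2 CPM. Tumor-like nuclei held 64.9% of the Pgf UMIs, and 31.9% without untreated tumor 1. Outside that tumor the higher levels were in endothelial-like nuclei, at 7.62 to 44.2 CPM, in mural-like nuclei, at 6.49 to 25.8 CPM, and in fibroblast-like nuclei, at 3.98 to 26.7 CPM. These classes overlapped, with medians of 11.96, 18.9 and 12.8 CPM. Without that tumor, fibroblast-like nuclei held 26.1% of the Pgf UMIs, endothelial-like nuclei 17.1% and mural-like nuclei 6.39%.

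The receptor genes follow, beginning with Kdr and Flt1, the only ones whose upstream sequences are shown. Flt4 and Tek also stood highest in endothelial-like nuclei in all 8 tumors, so this choice does not set Kdr and Flt1 apart. The windows run from 250 to 11 bases before the RefSeq start (RefSeq table of GRCm38.p6, found by exact match in GRCm39), both on the minus strand, and capitals mark GGAA or its reverse complement TTCC, the core bound by ETS factors such as the endothelial factor ERG. The Kdr window is chr5:76139126-76139365, inside an intron of a longer annotated Kdr transcript and of an overlapping antisense long noncoding RNA gene, and the Flt1 window is chr5:147662832-147663071, with no annotated transcript in it.
Kdr: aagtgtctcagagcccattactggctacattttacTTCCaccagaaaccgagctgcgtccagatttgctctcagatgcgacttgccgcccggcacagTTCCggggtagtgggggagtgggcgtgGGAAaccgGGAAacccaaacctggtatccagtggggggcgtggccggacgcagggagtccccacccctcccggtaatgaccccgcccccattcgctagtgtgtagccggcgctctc
Flt1: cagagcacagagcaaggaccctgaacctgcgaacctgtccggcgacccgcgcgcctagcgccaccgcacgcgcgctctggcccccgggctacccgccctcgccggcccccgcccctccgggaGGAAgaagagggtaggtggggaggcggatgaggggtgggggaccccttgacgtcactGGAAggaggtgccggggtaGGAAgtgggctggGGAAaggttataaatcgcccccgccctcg
Each window held 4 such cores, and 92.7% of 32851 RefSeq promoter windows of the same length held at least 1, with a median of 3. The core of the hypoxia response element, ACGTG or its reverse complement CACGT, was in neither window and in 15.9% of all windows. These matches describe the letters and say nothing of binding.

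Kdr (ENSMUSG00000062960, chr5:76093487-76139884) stood at 351, 313, 393 and 215 CPM in the endothelial-like nuclei of the untreated tumors and at 216, 127, 317 and 349 CPM in those of the Minnelide tumors. In the tumor-like nuclei it was 176, 28.7, 39.6 and 26.0 CPM untreated and 43.4, 19.6, 44.1 and 44.4 CPM with Minnelide. Endothelial-like nuclei were the higher in every tumor, and untreated tumor 1 was the high value among the tumor-like nuclei. Its myocyte-like nuclei were high too, at 124 CPM against 12.5 to 46.9 CPM in the other 7 tumors. The myocyte-like cluster of 2058 nuclei, with markers of all the other classes raised too, held 254.5 CPM, and the one of 1201 nuclei held 60.6 CPM. Over the next class, the macrophage-like nuclei, the endothelial-like level was higher by 2.35 on the log2 scale (SD 0.48, n = 8, exact sign-flip adjusted p = 0.117) and by 2.43 without untreated tumor 1 (SD 0.46). No step among the 6 other classes passed the test (adjusted p from 0.660 to 0.992 in 5 exact tests). Yet 60.9% of the Kdr UMIs lay in tumor-like nuclei, against 18.5% in endothelial-like nuclei, and without untreated tumor 1 the shares were 48.7% and 28.2%. The mean Kdr level was 52.8 CPM ± 50.8 in tumor-like and 63.1 CPM ± 41.5 in all retained nuclei (SD, n = 8).

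**Figure D2:**
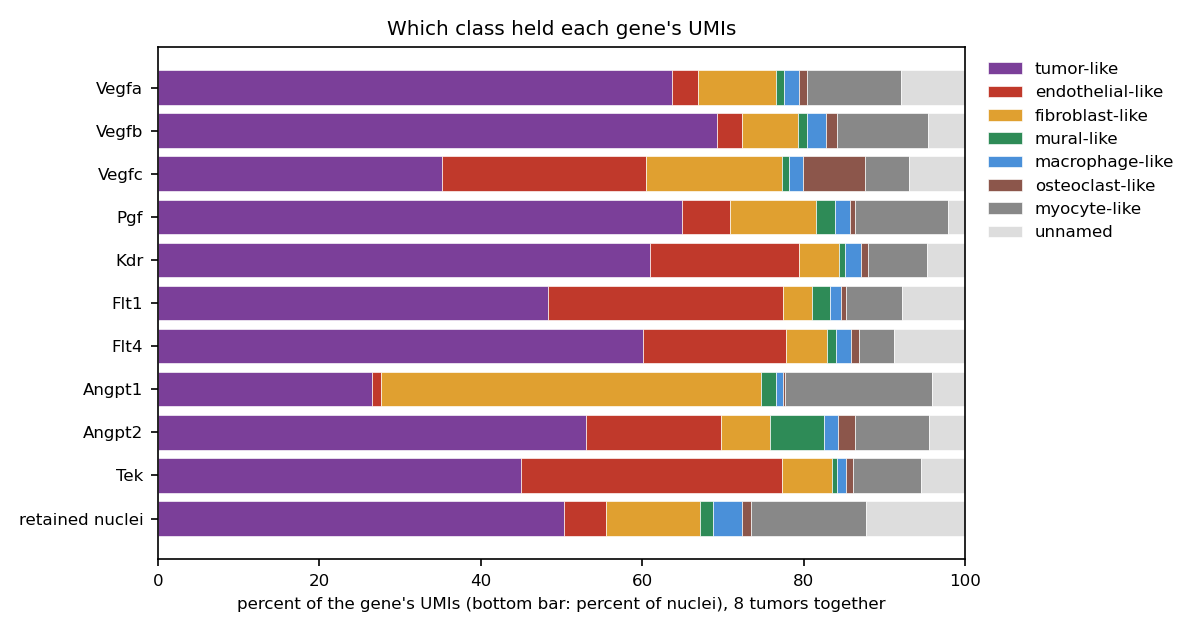
Percent of the UMIs of each gene, over the 8 tumors together, that lay in each class (bottom bar, percent of the 59920 retained nuclei). Tumor-like nuclei, 50.4% of all, held the largest share of every gene but Angpt1, of which fibroblast-like nuclei held 47.1%. A share also depends on the depth of the nuclei, which the bottom bar does not show. Without untreated tumor 1 the endothelial-like nuclei held the largest share of Tek, 46.4% against 26.3% in tumor-like nuclei.

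Flt1 (ENSMUSG00000029648, chr5:147498414-147662826) was 1373, 1662, 2504 and 2397 CPM in the endothelial-like nuclei of the untreated tumors and 979, 2458, 1702 and 2873 CPM in those of the Minnelide tumors. The mural-like nuclei, cells that wrap vessels, came next at 450.3, 246, 405 and 443 CPM untreated and 473, 531 and 403 CPM with Minnelide. The tumor-like nuclei held 378, 139, 207 and 245 CPM untreated and 179.9, 265, 90.2 and 342 CPM with Minnelide. The order endothelial-like, mural-like, tumor-like was thus the same in all 7 tumors with mural-like nuclei. The first step was 2.08 on the log2 scale (SD 0.60, n = 7) and the second 1.02 (SD 0.56, n = 7), each with an exact sign-flip p of 0.0156, the smallest that 7 tumors allow, and an adjusted p of 0.134. Endothelial-like nuclei held 29.1% of the Flt1 UMIs with 5.20% of the nuclei. Mural-like Flt1 was at 14.8% to 48.3% of the endothelial-like level while the endothelial markers there were at 8.15% to 16.3% of theirs, and Flt1 per endothelial-marker UMI was higher in mural-like than in endothelial-like nuclei in 7 of 7 tumors. For tumor-like nuclei the same held in 4 of 8 tumors and for fibroblast-like nuclei in 0 of 8.

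Flt4 (ENSMUSG00000020357, chr11:49500090-49543582) had few UMIs, 5242 in all. In endothelial-like nuclei it was 85.1, 106, 122 and 112 CPM in the untreated tumors and 37.4, 59.8, 73.6 and 92.2 CPM in the Minnelide tumors. In tumor-like nuclei it was 12.6, 20.9, 28.7 and 31.8 CPM untreated and 18.2, 6.60, 29.7 and 8.95 CPM with Minnelide. The endothelial-like level was the higher in every tumor, by 1.70 on the log2 scale (SD 0.56, n = 8, exact sign-flip adjusted p = 0.117), and untreated tumor 1 was the lowest of the untreated tumors in both classes. Unlike for Kdr and Tek, the endothelial markers raised among tumor-like nuclei from untreated tumor 1 came without a raised Flt4.

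Tek (ENSMUSG00000006386, chr4:94627291-94763224) was 599.9, 219, 576 and 217 CPM in the endothelial-like nuclei of the untreated tumors and 231, 337, 371 and 287 CPM in those of the Minnelide tumors. The tumor-like level was 112 CPM in untreated tumor 1, against 13.9, 17.5 and 11.6 CPM in untreated tumors 2 to 4 and 15.7, 19.996, 14.7 and 13.2 CPM in the Minnelide tumors. A single tumor again stood above 7 that lay together. The endothelial-like nuclei exceeded the next class, the osteoclast-like one, by 2.995 on the log2 scale (SD 0.78, n = 8, exact sign-flip adjusted p = 0.117), and by 2.94 without untreated tumor 1. They held 32.3% of the Tek UMIs against 45.0% in tumor-like nuclei, and without untreated tumor 1 this order turned, at 46.4% against 26.3%.

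Of the 2 tumor-like clusters of untreated tumor 1, the larger one of 1834 nuclei held 171 CPM of Kdr, 366 of Flt1, 112 of Tek and 11.4 of Flt4, and the smaller one of 1460 nuclei held more of each, at 226, 478, 128 and 16.9 CPM. Over all tumor-like nuclei, Tek per endothelial-marker UMI was below that of the endothelial-like nuclei in 8 of 8 tumors, at a median of 2.85 against 6.13 per 100 marker UMIs. Macrophage-like nuclei were above the endothelial-like ratio of Tek in 0 of 8 tumors too, and mural-like nuclei in 1 of 7. Fibroblast-like nuclei were above it in 3 of 8 tumors, and osteoclast-like and myocyte-like nuclei in 4 of 8 each. Kdr per 100 marker UMIs had a median of 6.4998 in tumor-like and 5.43 in endothelial-like nuclei and was higher in tumor-like nuclei in 8 of 8 tumors. That was not particular to tumor-like nuclei. Kdr per marker UMI was also above the endothelial-like ratio in fibroblast-like and myocyte-like nuclei in 8 of 8 tumors. For macrophage-like nuclei, with a median of 8.13, this held in 7 of 8 tumors, for osteoclast-like nuclei in 6 of 8 and for mural-like nuclei in 3 of 7. Free RNA in the nuclear suspension was not measured here, and its part in the receptor UMIs of tumor-like nuclei was not tested.

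**Figure D3:**
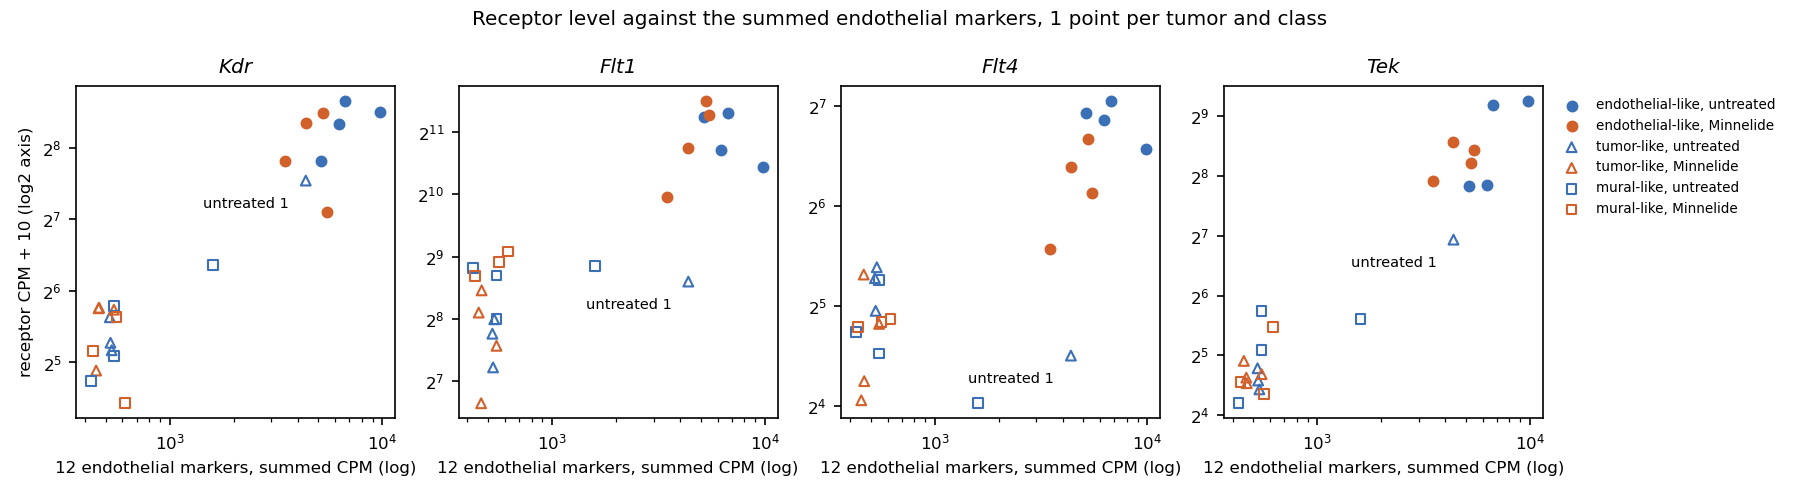
Receptor level (CPM + 10, log2 axis) against the summed level of 12 endothelial markers (CPM, log axis), 1 point per tumor, in endothelial-like (filled circles), tumor-like (triangles) and mural-like nuclei (squares). The tumor-like nuclei of untreated tumor 1, at 4368 CPM of markers, lie near the endothelial-like nuclei for Kdr and below them for Tek and Flt4, and mural-like Flt1 lies between 246 and 531 CPM at low marker levels in 6 of 7 tumors.

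Angpt1 (ENSMUSG00000022309, chr15:42288058-42540417), the activating ligand of TEK, was 671, 355, 304 and 408 CPM in the fibroblast-like nuclei of the untreated tumors and 416, 225, 529 and 293 CPM in those of the Minnelide tumors. Myocyte-like nuclei varied more, with 71.5, 315, 94.3 and 329.8 CPM untreated and 608, 91.6, 230.1 and 41.1 CPM with Minnelide. Fibroblast-like nuclei were higher in all but Minnelide tumor 1, by 1.19 on the log2 scale (SD 1.22, n = 8, exact sign-flip p = 0.0391, adjusted p = 0.256). They held 47.1% of the Angpt1 UMIs with 11.6% of the nuclei, and the endothelial-like nuclei held 1.10%. In mural-like nuclei the level was 280.2 CPM in untreated tumor 1 and 26.9 to 130.3 CPM in the other 6 tumors.

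Angpt2 (ENSMUSG00000031465, chr8:18739202-18791603), the context-dependent antagonist, was 68.9, 119, 96.6 and 153 CPM in the endothelial-like nuclei of the untreated tumors and 54.5, 144, 57.9 and 137 CPM in those of the Minnelide tumors. In mural-like nuclei it was 221, 92.6, 129.8 and 41.8 CPM untreated and 61.7, 65.4 and 99.1 CPM with Minnelide. These classes overlapped, and the mural-like nuclei were the higher in 4 of the 7 tumors that had both, with a mean difference (endothelial-like less mural-like) of 0.03 on the log2 scale (SD 1.08, n = 7, exact sign-flip p = 0.953). Mural-like nuclei exceeded the next class, the osteoclast-like one, in 7 of 7 tumors by 1.38 on the log2 scale (SD 0.44, n = 7, exact sign-flip adjusted p = 0.134). Angpt2 per 100 endothelial-marker UMIs had a median of 13.9 in mural-like against 1.74 in endothelial-like nuclei and was higher in the mural-like nuclei in 7 of 7 tumors. The tumor-like nuclei held 44.4 CPM in untreated tumor 1 and 6.503 to 17.5 CPM in the other 7 tumors.

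The endothelial-like nuclei were split into 11 subclusters, again leaving the genes studied out of the clustering. They are described without a test, and the genes named in them were chosen after their values were seen. Names come from marker lists, and levels are over all nuclei of a subcluster. A lymphatic-like subcluster of 67 nuclei, with 6 of 6 lymphatic markers raised, held 406 CPM of Flt4, the highest of the 11, 312 CPM of Angpt2, and 316 CPM of Flt1 and 3.90 CPM of Vegfc, the lowest for both. The one tumor with at least 10 of these nuclei, untreated tumor 1, held 232 CPM of Angpt2 on 27 UMIs, within the 138 to 420 CPM of 7 tumors in the tip-like subcluster. It rested on 104 Flt4 UMIs, and 41.8% of its nuclei came from untreated tumor 1. A tip-like subcluster of 477 nuclei, whose 6 tip markers were all raised as in sprouting cells, held 209 CPM of Angpt2, 38.5 of Pgf and 2876 of Flt1. An arterial-like subcluster of 111 nuclei, with 8 of 8 arterial markers raised, held 752 CPM of Vegfc and 10.8 of Angpt2. An unnamed subcluster of 322 nuclei, led by Sntb1, Tacr1, Slco2a1 and Npnt, held 619 CPM of Vegfc and the highest Kdr, Flt1 and Tek of the 11, at 586, 4022 and 797 CPM. A pair of venous-like subclusters held 714 and 662 CPM of Tek, of which the second came to 99.04% from untreated tumor 1. Within the endothelial-like nuclei, Vegfc and Angpt2 were thus high in different subclusters. The leading genes of 3 unnamed subclusters were those of other classes, and none had a subtype marker raised. Those of 616 and 261 nuclei were led by genes that also led tumor-like clusters, such as Dcc, Grip1 and Tenm2 in the first and Rgs7, Esrrg and Asic2 in the second, and the one of 401 nuclei by the muscle genes Xirp2, Myh1 and Ttn and by collagen genes. They held 219, 233 and 222 CPM of Vegfa, against 101, 79.7 and 101 CPM in the tip-like subcluster, that of 322 nuclei and the venous-like one of 203 nuclei. The part of other classes' RNA in the endothelial-like levels was not tested.

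**Figure D4:**
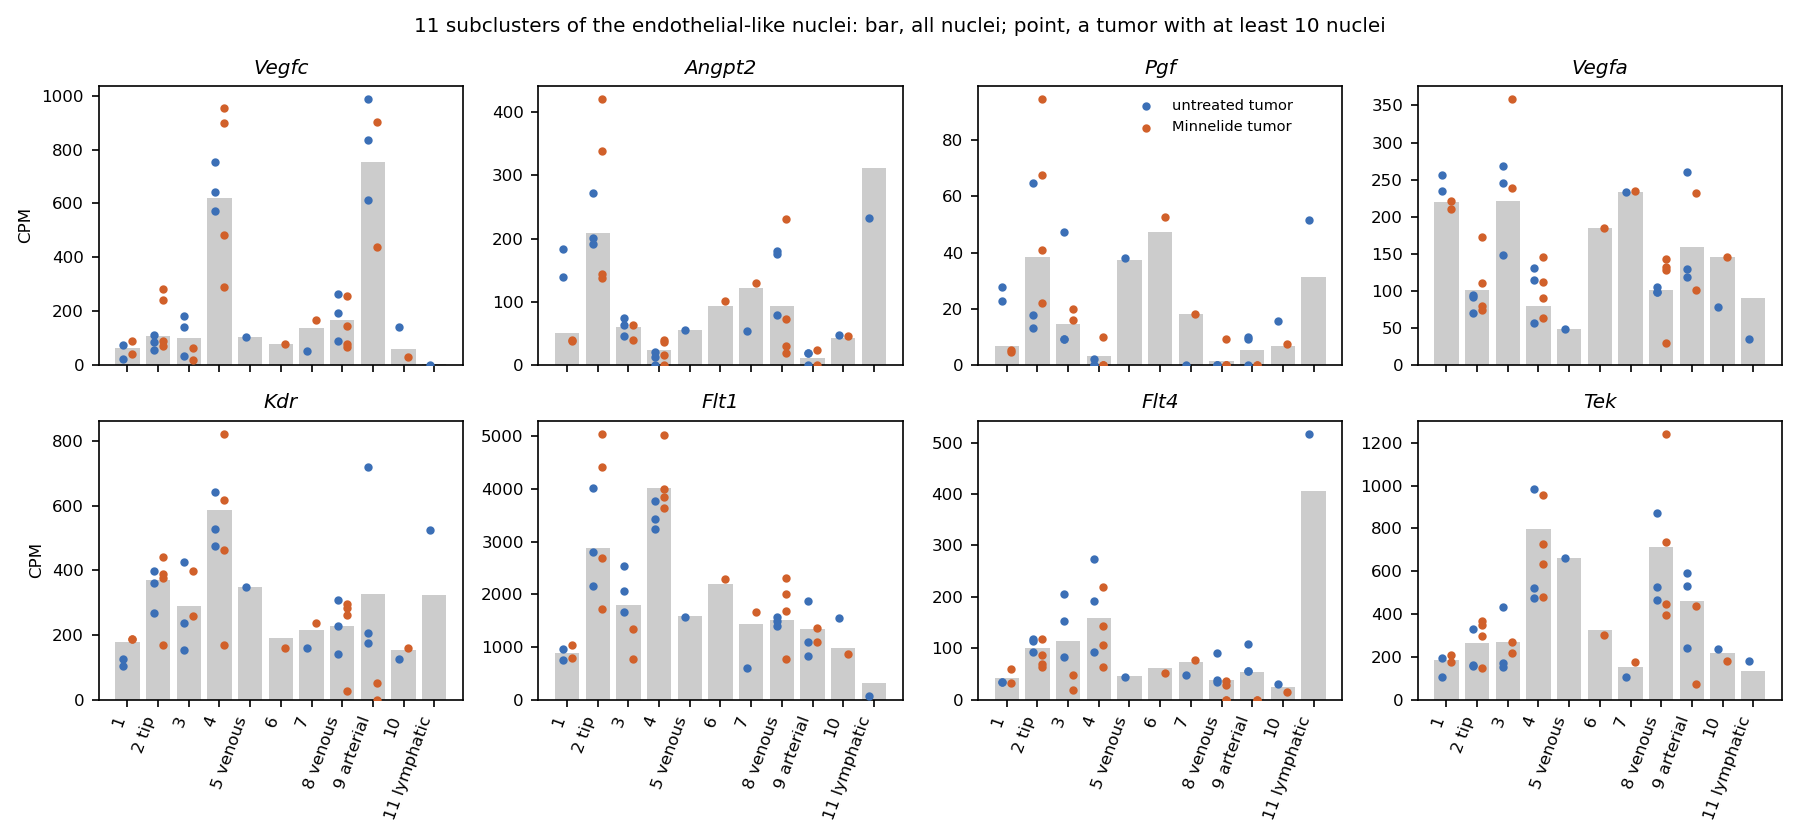
Level of 8 of the genes (CPM, linear axis from 0) in 11 subclusters of the endothelial-like nuclei, with bars over all nuclei and points for each tumor with at least 10 nuclei. Flt4 peaks in the lymphatic-like subcluster 11, Angpt2 is high there and in the tip-like subcluster 2, Vegfc in subclusters 4 and 9, and Kdr and Flt1 in subcluster 4, where points of both groups lie side by side.

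The mural-like nuclei gave 6 subclusters. The largest pericyte-like one, of 291 nuclei, held 708 CPM of Flt1 and 98.97 of Angpt2, a smooth muscle-like one of 118 nuclei held 285 CPM of Flt1 and 227 of Angpt2, and a pericyte-like one of 170 nuclei, all from untreated tumor 1, held 332 CPM of Angpt1 and 233 of Angpt2. Flt1 was thus highest in a pericyte-like subcluster. The smooth muscle-like Angpt2 ranged from 32.6 to 718 CPM over 5 tumors, the highest of them with 10 nuclei, and was 187 CPM in untreated tumor 1. Subclusters of 187, 145 and 47 nuclei stayed unnamed and held 304, 313 and 421 CPM of Flt1. Their leading genes included ones that also led tumor-like clusters, such as Tenm2 and Rgs20 in the first pair and Galntl6 in the last. The part of other classes' RNA in the mural-like levels was not tested.

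Genes with the most similar profile were sought among 13415 genes by Pearson's r of log2(CPM + 10) over 55 profiles, each 1 class in 1 tumor. The profiles share tumors, libraries and depth, so r is only a description. For Kdr they were Cdh5 (r = 0.93), Emcn (0.91) and Dll4 (0.91), and for Tek they were Ccm2l (0.95), Adgrl4 (0.94) and Emcn (0.94), of which Cdh5, Emcn and Adgrl4 are markers used to name the endothelial-like nuclei. Flt1 was most like Adamts9 (0.86), Rapgef3 (0.85) and Nova2 (0.85), and Flt4 most like Arhgef15 (0.90), Cdc42bpb (0.88) and Kcnq1 (0.87). Angpt2 was most like the basement membrane genes Col4a2 (0.87), Col4a1 (0.85) and Col18a1 (0.83), and Angpt1 most like Zfhx4 (0.85), Tbx15 (0.82) and Galnt17 (0.81). Vegfc was most like Itga2 (0.89), Ndst1 (0.85) and Plxna2 (0.83), and Pgf most like Tmod3 (0.83), Ltbp4 (0.80) and Ehd2 (0.79). The lowest values were for Vegfa, with Ncam1 (0.80), Mga (0.79) and Kcnma1 (0.76), and for Vegfb, with Atp5d (0.65), Snrpa1 (0.64) and Plp2 (0.61).

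Between the groups, 0 of the members tested were called in any of 7 populations, which were all retained nuclei and the 6 classes other than osteoclast-like (edgeR quasi-likelihood test on UMIs summed per tumor, Benjamini-Hochberg adjusted p under 0.05 over all genes tested). The filter on low counts left 10 members to test in all retained, tumor-like, endothelial-like and fibroblast-like nuclei, 9 in myocyte-like and 8 in mural-like and macrophage-like nuclei. The background was low as well: of all genes tested, 0% were called in all retained, tumor-like, endothelial-like, mural-like, macrophage-like and myocyte-like nuclei and 0.00863% in fibroblast-like nuclei. DESeq2 also called 0 of the members, where it called 1.3% of all genes in all retained nuclei, 0.684% in tumor-like, 0.34% in endothelial-like, 0.449% in fibroblast-like, 0.757% in myocyte-like and 0% in mural-like and macrophage-like nuclei. At an unadjusted p under 0.05, edgeR gave 2 of 10 members in endothelial-like nuclei and 1 of 10 in fibroblast-like nuclei, and 0 in the other 5 populations. The shares of all genes at that level were 10.1% in endothelial-like, 8.24% in fibroblast-like, 10.1% in all retained, 8.92% in tumor-like, 5.63% in mural-like, 5.31% in macrophage-like and 10.5% in myocyte-like nuclei. The members' median log2 fold change was -0.14 in endothelial-like nuclei (all genes, -0.01), -0.25 in tumor-like nuclei (all genes, -0.01) and -0.27 in all retained nuclei (all genes, 0.01). Without untreated tumor 1 the tumor-like median turned to 0.18 (all genes, 0.02), with 7 of 10 members higher with Minnelide. It was then -0.14 in endothelial-like nuclei (all genes, 0.01) and -0.11 in all retained nuclei (all genes, 0.03). In sums over all retained nuclei, fewer cells of a type and less RNA per cell cannot be told apart.

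The 2 endothelial-like genes were Vegfb and Flt4, a ligand and a receptor. Vegfb was 16.1, 18.4, 14.4 and 6.65 CPM in the untreated and 31.2, 20.8, 22.9 and 20.1 CPM in the Minnelide tumors. All Minnelide tumors thus lay above all untreated tumors, by 0.81 on the log2 scale (SE 0.29, edgeR adjusted p = 0.450), and 2.72% of all genes tested in these nuclei were separated in that direction. Those levels rested on 5 to 86 UMIs per tumor. The endothelial-like nuclei of the groups lay partly in different subclusters: that of 616 nuclei, with the highest Vegfb of the 11 at 29.4 CPM and 42.0 CPM of Flt4, held 316 and 196 nuclei of Minnelide tumors 1 and 3 and 47 and 50 of untreated tumors 3 and 4. Within the tip-like subcluster, Vegfb was 0 to 11.02 CPM in 3 untreated tumors and 12.5 to 52.6 CPM in 4 Minnelide tumors, on 0 to 13 UMIs each. The groups were also apart in the subcluster of 616 nuclei, at 0 and 17.2 CPM untreated and 25.2 and 36.0 CPM with Minnelide. They overlapped in those of 401, 322, 203 and 111 nuclei. In the first of these, Vegfb was 18.5 to 47.4 CPM untreated and 15.9 and 59.7 CPM with Minnelide. In that of 261 nuclei it was higher in untreated tumor 2 (29.1 CPM) than in Minnelide tumor 4 (19.4 CPM). Flt4, with the values given above, had a log2 fold change of -0.66 (SE 0.29, edgeR adjusted p = 0.483), and its groups overlapped, as they did within the tip-like subcluster, at 92.0 to 118 CPM untreated and 63.1 to 119 CPM with Minnelide. In fibroblast-like nuclei Vegfb was 21.3, 18.5, 13.3 and 10.3 CPM untreated and 29.6, 20.2, 22.6 and 23.5 CPM with Minnelide, where the highest untreated tumor lay above the lowest Minnelide tumor, with a log2 fold change of 0.64 (SE 0.24, edgeR adjusted p = 0.603).

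In tumor-like nuclei the lowest log2 fold changes were those of Pgf at -2.30 (SE 1.10, edgeR adjusted p = 0.553), Tek at -1.08 (SE 0.66, adjusted p = 0.604) and Kdr at -0.64 (SE 0.58, adjusted p = 0.737). Without untreated tumor 1 they were 0.16, 0.18 and 0.32, so 1 tumor set their direction. Vegfa in tumor-like nuclei was 249 CPM ± 91.1 untreated and 246 CPM ± 43.8 with Minnelide (SD, n = 4 each), a log2 fold change of 0.05 (SE 0.34, edgeR adjusted p = 0.969). Flt1 in endothelial-like nuclei was 1984 CPM ± 553 untreated and 2003 CPM ± 838 with Minnelide (SD, n = 4 each), a log2 fold change of 0.04 (SE 0.37, edgeR adjusted p = 0.982). Endothelial-like nuclei were 5.04% ± 1.86 of the retained nuclei of untreated tumors and 5.94% ± 1.42 of Minnelide tumors (SD, n = 4 each), and an exact permutation test, two-sided, gave p = 0.457, where 0.0286 is the smallest p that 4 against 4 tumors allow.

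**Figure D5:**
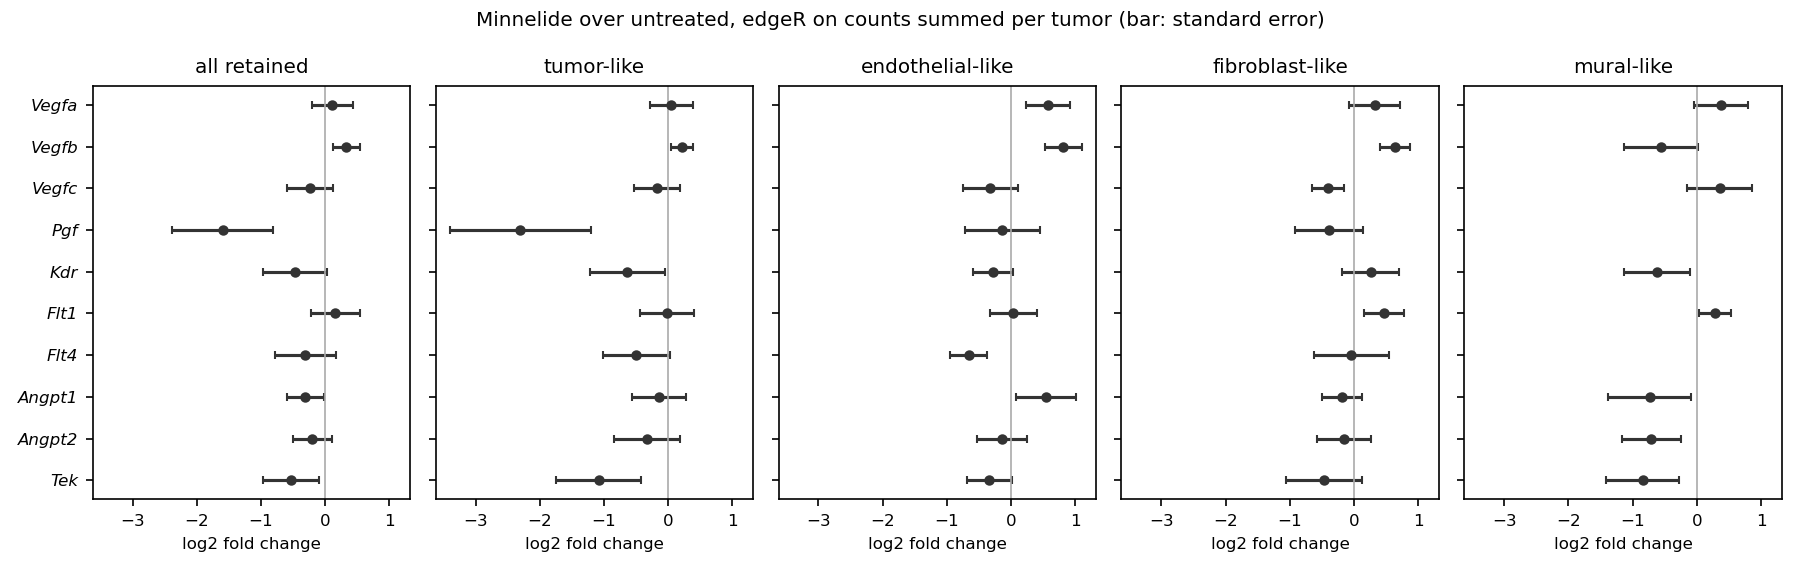
Log2 fold change of each gene, Minnelide over untreated, from edgeR on UMIs summed per tumor in 5 populations (points, with bars of 1 standard error; genes that did not pass the count filter have no point). No gene was called, and the lowest points, Pgf, Tek and Kdr in tumor-like nuclei, lie at -2.30, -1.08 and -0.64.

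Other genes of the pathway came from 4 lists, and 0 genes of any list were called in all retained, tumor-like or endothelial-like nuclei (edgeR, adjusted p under 0.05). Of coreceptors and modulators 11 of 11 were measured, of the vascular Notch genes 7 of 8, of VEGF receptor signaling 10 of 11 and of hypoxia genes 17 of 17. At an unadjusted p under 0.05 in endothelial-like nuclei there were 4 list genes, all with lower values with Minnelide: Nrp2 at -0.43 (SE 0.19), Tie1 at -0.65 (SE 0.23), Shb at -0.69 (SE 0.23) and Ndrg1 at -0.70 (SE 0.24) on the log2 scale, with edgeR adjusted p of 0.483, 0.450, 0.447 and 0.450. By list they were 2 of 8 coreceptors and modulators tested, 0 of 6 Notch, 1 of 9 VEGF receptor signaling and 1 of 17 hypoxia genes. Of all genes tested in these nuclei, 10.1% reached that level. The median log2 fold changes of the lists there were -0.29 for coreceptors and modulators, -0.19 for Notch, 0.04 for VEGF receptor signaling and 0.14 for hypoxia, beside -0.01 over all genes. Nrp2 encodes a coreceptor of FLT4 for Vegfc, and Tie1 is the partner receptor of TEK. In tumor-like nuclei the unadjusted genes were Hes1 (log2 fold change -1.18, SE 0.37, edgeR adjusted p = 0.549) and Vegfd (-1.91, SE 0.74, adjusted p = 0.549), and in all retained nuclei they were Hes1 (-0.74, SE 0.31, adjusted p = 0.493) and Sphk1 (-0.75, SE 0.29, adjusted p = 0.477). Without untreated tumor 1 these were -0.70 for Hes1 and -0.71 for Vegfd in tumor-like nuclei and -0.42 for Hes1 and -0.80 for Sphk1 in all retained nuclei. By list the unadjusted genes were 1 of 10 coreceptors and modulators and 1 of 7 Notch genes tested in tumor-like nuclei. In all retained nuclei they were 1 of 7 Notch and 1 of 10 VEGF receptor signaling genes. The shares of all genes at that level were 8.92% in tumor-like and 10.1% in all retained nuclei.

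By class, Nrp1, the VEGF coreceptor, was at 906 CPM ± 247 in endothelial-like and 877 CPM ± 429 in tumor-like nuclei (SD, n = 8). Nrp2 was at 2192 CPM ± 611 in osteoclast-like nuclei, where its ligand Vegfc was also high, against 547 CPM ± 121 in endothelial-like nuclei (SD, n = 8). Svep1, a matrix protein of lymphatic growth, was at 755 CPM ± 273 in fibroblast-like nuclei (SD, n = 8). Of the Notch genes, Dll4, the tip cell ligand, and Notch1 were highest in endothelial-like nuclei at 98.9 CPM ± 34.96 and 128 CPM ± 22.9 (SD, n = 8), and Jag1 in mural-like nuclei at 238 CPM ± 92.0 (SD, n = 7). Of the kinase genes, Prkca had its highest mean in fibroblast-like nuclei at 969.8 CPM ± 181 and Ptk2 in endothelial-like nuclei at 734 CPM ± 84.2 (SD, n = 8). Prkcb was at 1131 CPM ± 590 in tumor-like and 1107 CPM ± 396 in macrophage-like nuclei (SD, n = 8), a difference within the spread. Steps between classes were not tested for these pathway genes. Among hypoxia genes, Epas1, which encodes HIF-2α, was highest in mural-like nuclei at 477 CPM ± 78.8 (SD, n = 7), P4ha1 in fibroblast-like nuclei at 424 CPM ± 116 (SD, n = 8) and Kdm3a in osteoclast-like nuclei at 341 CPM ± 67.4 (SD, n = 8).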

How the data were processed

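Single-nucleus RNA was captured with a 10x 3′ kit. The authors made the raw UMI counts per gene and nucleus with Cell Ranger (9.0.1 per the file headers, 7.0.1 in the submitters' processing notes) on mm39 with intronic reads, and deposited them unnormalized, as 4 matrices for each of 2 GEO samples. Each matrix was taken as a tumor, and tumor numbers follow file order and pair no tumors. The Minnelide group mixes tumors of good and poor response, which of the sources used here only file names assign to tumors, so no comparison by response was made. Whether counting used strand is not given in the sources used here, so UMIs of Kdr and of the antisense gene that overlaps it may not be separate.

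The members and gene lists were chosen with earlier results of these data known. Filtering removed nuclei under 200 genes and those that a mixture model of mitochondrial percent against gene number called compromised (posterior 0.75 or more), as was the highest-scoring share for doublets (Scrublet in scanpy 1.11.5, 0.8% per 1000 nuclei). Nuclei of all tumors were clustered without integration on 2000 variable genes, 30 components and 40 neighbours (Leiden, igraph 0.11.9, resolution 1), leaving out the members, the pathway lists and the markers. Clusters were named by the marker list with the greatest average log2 fold, taken inside each tumor over the 10th percentile of clusters after adding 20 CPM, with at least 3 markers raised 1.5-fold in at least 5% of nuclei, and stayed unnamed where its 10 leading genes went against the name. That rule was set after clusters were seen. Pericyte and smooth muscle genes fell in 1 cluster, here mural-like.

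UMIs were summed per tumor and class and tested with edgeR 4.0.16 (TMM, filterByExpr, quasi-likelihood, Benjamini-Hochberg, R 4.3.3), without covariates, with DESeq2 1.42.0 as an alternative. Class differences used log2(CPM + 10) and exact sign-flip tests. The code was tested on simulated data. Named genes are all members, the 3 genes of each list with the most UMIs, list genes past the test, and the 3 most similar genes per member (at least 200 UMIs). List genes named for an unadjusted p, and subcluster genes, were chosen after their values were seen. The labels do not say that tumors came from separate mice. p-values measure the spread between these tumors.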

Additional observations from a re-analysis of the deposited data

Results flagged for a closer look

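Of 58 sets of 4 tumors examined (a gene or marker sum in a class and group), 6 held 1 value set apart from the remaining 3 (Dixon's test), where chance gives about 1 in 20, or 2.9. All 6 were in tumor-like nuclei. In the untreated group, untreated tumor 1 was the high one 4 times, for Pgf at 56.4 CPM (others, 1.63 to 2.97), Kdr at 176 CPM (others, 26.0 to 39.6), Tek at 112 CPM (others, 11.6 to 17.5) and the sum of 12 endothelial markers at 4368 CPM (others, 524 to 534). The 4 values come from the same nuclei and are not separate occurrences.

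In the Minnelide group, Kdr was low in tumor 2 at 19.6 CPM (others, 43.4 to 44.4), and the endothelial marker sum was high in tumor 1 at 548 CPM (others, 452 to 466).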

How the results depend on the processing

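No member was called in any of the 7 populations under 110 alternatives of the counts, and 0 leading classes passed the adjusted test under any of 15 alternatives (unadjusted, 4 to 6). The count of leading classes says little, since members at the smallest possible p had an adjusted p of 0.0670 or more under each alternative. Stricter naming left too few endothelial-like, fibroblast-like, mural-like and macrophage-like tumors for a fit and was not run there or for the class order and the endothelial-like share. The leading class was the same under all 15 for Vegfa, Kdr, Flt1, Flt4, Angpt1 and Tek, under 13 for Vegfb and under 12 for Vegfc, Pgf and Angpt2. Of 370 alternatives of 25 member fold changes, 33 turned the sign, in 15 results. None of these fold changes passed the test, and the cause was not tested. No paired analysis was possible because the labels give the tumors no replicate numbers that the groups share.

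Leaving out 1 tumor at a time gave these ranges of log2 fold change where a sign turned. In all retained nuclei they were -0.12 to 0.39 for Vegfa, -0.47 to 0.11 for Vegfc, -0.67 to 0.036 for Kdr, -0.33 to 0.34 for Flt1 and -0.42 to 0.093 for Angpt2. In tumor-like nuclei they were -0.19 to 0.29 for Vegfa, -2.65 to 0.16 for Pgf, -0.87 to 0.32 for Kdr and -1.35 to 0.18 for Tek, the upper ends of the last 3 being those without untreated tumor 1. They were -0.64 to 0.15 for Vegfc, -0.19 to 0.28 for Flt1 and -0.37 to 0.088 for Angpt2 in endothelial-like nuclei and -0.44 to 0.066 for Angpt1 in fibroblast-like nuclei. Vegfa in tumor-like nuclei was -0.0032 without doublet removal, -0.0042 at resolution 0.5, -0.41 with stricter naming and -0.020 without the check of leading genes. That check was dropped as an alternative chosen after seeing the data, and it gave 0.28 for Vegfc, 0.14 for Kdr, 0.089 for Tek and 0.15 for Angpt2 in endothelial-like nuclei, and turned the difference in endothelial-like share from 0.899 to -0.842 percentage points (0.240 to 1.75 with 1 tumor left out). Kdr in endothelial-like nuclei was 0.052 with the filter on genes only, Flt1 there was -0.13 at resolution 0.5 and -0.072 at resolution 2, and Angpt1 in fibroblast-like nuclei was 0.028 at resolution 2. Depth limits the sparse genes most, such as Pgf with 9 UMIs or more per tumor in tumor-like nuclei and Vegfb with 5 or more in endothelial-like nuclei.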

Other observations

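The unnamed cluster of 6501 nuclei, which came to 96.2% from untreated tumor 4, held 477 CPM of Vegfa, 29.8 of Vegfb, 18.5 of Vegfc, 62.1 of Kdr, 248 of Flt1, 37.7 of Flt4, 53.6 of Angpt1 and 26.0 of Tek, with 778 CPM of the 12 endothelial markers. Its Vegfa was the highest of the 33 clusters. Another unnamed cluster of 342 nuclei, all from Minnelide tumor 4, held 592 CPM of Flt1, against 333 CPM in the tumor-like cluster of 3294 nuclei that came to 97.5% from that tumor.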
